A study of Mus musculus with 3 samples.

Results

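The comparison described here set intestinal organoids that carried floxed alleles of both Apc and Lef1 (LApcL) against organoids that carried floxed Apc alleles without floxed Lef1 (LApc), outside the cells that express Npy. It asks what differs in Apc-deficient epithelium when Lef1 is targeted as well. Npy encodes a neuropeptide, and a group of LApc cells with many Npy transcripts is known from these files. The cells were chosen by a rule on the deposited counts. A barcode, which tags 1 droplet and usually 1 cell, had to occur in 1 library alone. It had to hold at least 10000 unique molecular identifiers (UMIs, each tagging 1 captured RNA molecule), at most 20% of them mitochondrial, and 0 or 1 UMI of Npy. This left 1904 LApc and 1930 LApcL cells, 3834 of the 34185 barcodes of the series. Because Npy UMIs chose the cells, the Npy level itself is given as a description.

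There were 3 libraries of C57BL/6 mouse small intestinal organoids at passage 3 and culture day 6, 1 per genotype. Mice received tamoxifen in 2 doses (2 mg). LApc mice carried Lgr5-CreERT2 and Apc fl/fl, and LApcL mice carried Lef1 fl/fl besides. The Cre is driven from the Lgr5 locus, so that deletion is aimed at crypt base stem cells. The WT organoids are labelled wild type and received the same tamoxifen, so that all 3 groups shared the drug. They are shown as the control level from 1208 cells under the same rule. The mice, 7 to 8 weeks old when tamoxifen was given, were analysed 21 days after it for WT and LApcL and 29 days after it for LApc. The labels do not say how many mice gave each library. With 1 library a genotype, genotype, animal, days after tamoxifen and library cannot be told apart, and no test between groups was possible.

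Wnt signalling keeps intestinal stem cells dividing at the crypt base. Apc is part of the complex that marks beta-catenin for destruction, and when it is lost beta-catenin acts with the Tcf and Lef factors at Wnt target genes. Lef1 is one of these DNA-binding factors. Several targets are themselves brakes on the pathway, either secreted antagonists or cell-bound regulators, and so give negative feedback.

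The kept cells held 78731286 UMIs in LApc and 80442140 in LApcL, with medians of 33864 and 32572 UMIs per cell, and 48895147 UMIs in WT. UMIs were summed per library and scaled to counts per 1000000 UMIs (CPM). A log2 ratio is the log2 of CPM + 1 in LApcL over CPM + 1 in LApc, so that changes of scarce transcripts come out too small. Ranges in parentheses are exact 95% intervals, and they cover counting error only, not the spread between animals or cultures. A gene with 0 UMIs could still stand at up to 0.0614 CPM in WT, 0.0381 in LApc or 0.0373 in LApcL, the level of 3 counts. Shares of cells with a UMI are given after each cell was thinned to 10000 UMIs. As a comparison with cells of another type, cells were also thinned to 1000 UMIs and set beside the barcodes shared between libraries, which express endothelial genes and held a median of 1990 UMIs in LApcL. There Pigr had a UMI in 16.4% of the kept LApcL cells and 0.125% of the shared barcodes, Lgr5 in 8.7% and 0.0832%. In LApc, Notum had one in 21.8% and 0.394%. The sex-linked genes set the libraries apart before any other gene. Xist, expressed from the inactive X chromosome, had UMIs in 99.7% of LApc and 0.881% of LApcL cells before thinning (99.2% and 0.415% after it). UMIs of Y-linked genes were found before thinning in 0.210% and 94.9%. WT had them in 94.9% of cells too, so that LApc alone stood apart in these genes and in its day of analysis. Epcam, which marks epithelium, had a UMI in 99.9% of LApc and 100% of LApcL cells. Pecam1, which marks endothelium, had one in 1.47% and 0.57%. The 7 endothelial markers together gave a mean of 0.19 UMIs per thinned LApc cell and 0.132 per LApcL cell. The 8 stromal markers gave 11.1 and 3.71, nearly all from Vim, and Col1a1, Col1a2 and Col3a1 had at most 11 UMIs in either sum. A total of 3195 barcodes occurred in all 3 libraries, and these were not among the kept cells.

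Of 3308 genes at 50 CPM or more in 1 of the 2 sums, 32 (0.967%) were at least 2-fold higher in LApcL and 63 (1.9%) were at least 2-fold lower. The median log2 ratio over these genes was 0.046. Xist is among the lower genes and Eif2s3y, a Y-linked gene, among the higher ones. The lower genes hold Dkk3, Wif1 and Notum, 3 of the 10 secreted Wnt antagonists with at least 10 UMIs in 1 of the sums. They also hold the feedback regulators Nkd1 and Apcdd1. The higher genes hold the stem cell gene Lgr5, the secreted Wnt antagonist Sfrp5, Paneth cell defensins, Ly6 surface proteins and the epithelial defence genes Pigr and Reg3g. Of the 21 measured epithelial defence genes, however, 13 were below 0. Of the 63 lower genes, WT stood below both other libraries for 41, between them for 17 and above both for 5. For the 32 higher genes these numbers were 20, 4 and 8. Both sets were chosen by the ratio of the 2 libraries. Where WT lay below both, the library with the higher level was thus farther from WT by construction. The same count over all 3308 genes was not made, so these numbers are a description.

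**Figure D1:**
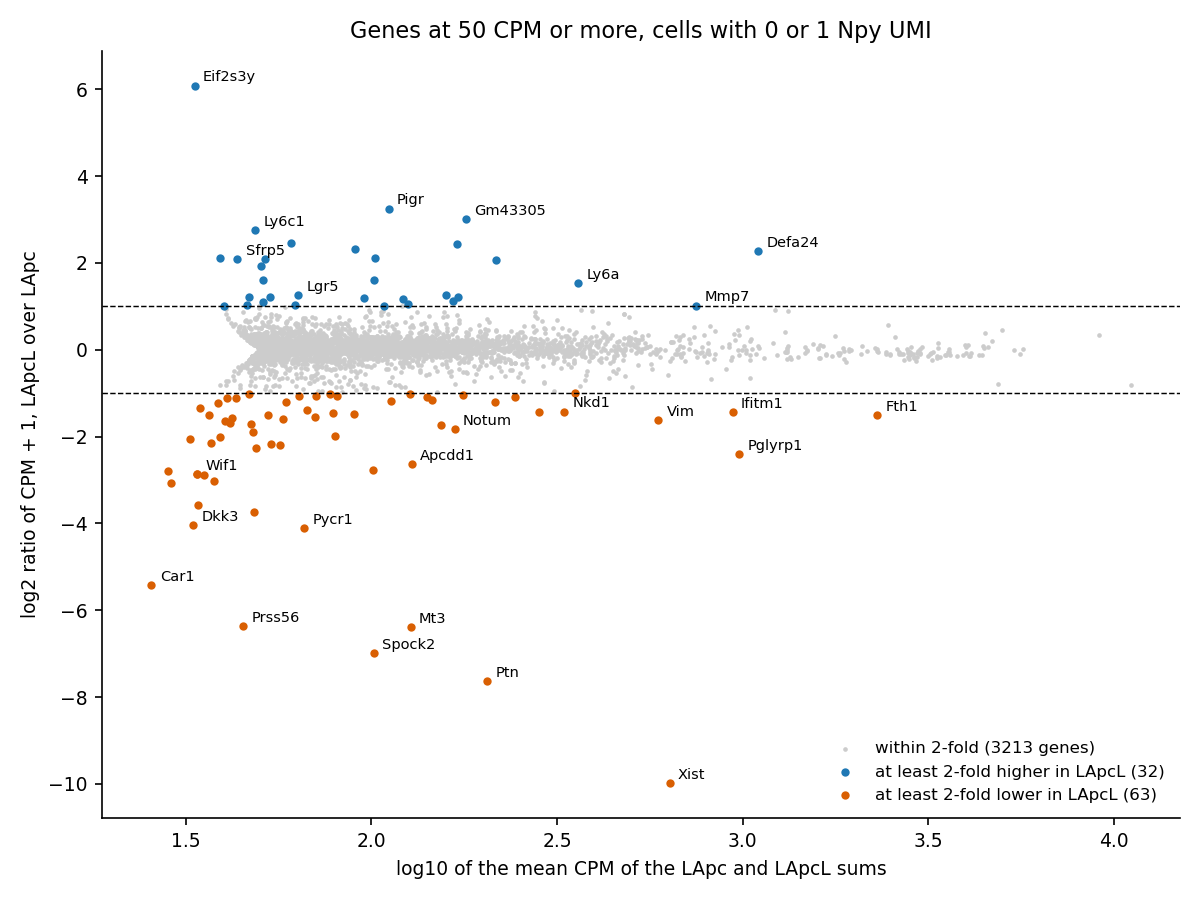
Each point is 1 gene at 50 CPM or more in 1 of the 2 sums. The horizontal axis is the log10 of the mean CPM of the LApc and LApcL sums, the vertical axis is the log2 ratio of LApcL over LApc, and dashed lines mark 2-fold. The 63 lower genes reach farther from 0 than the 32 higher ones, with Ptn at -7.64 and Pigr at 3.25 as the most extreme apart from the sex-linked genes Xist and Eif2s3y.

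Promoters of genes that differed were searched for letters of the Tcf and Lef recognition motif. RefSeq windows of 300 bases on GRCm38.p6, from 250 before to 50 after a start site, were available for 21 of the 32 higher, 47 of the 63 lower and 15 of the 25 listed Wnt genes. The letters were CTTTGAT (in 3.73% of all 32851 windows), CTTTGAA (in 5.14%), CTTTGTT (in 5.85%) and CTTTGTA (in 3.63%), on either strand, and matches on opposite strands may overlap. At least 1 of them lay in 16.9% of all windows, in 25% of the 32 windows of higher genes and in 15.5% of the 58 windows of lower genes. In the 17 windows of the listed Wnt genes the share was 17.6%. The shares in lower genes and in the Wnt genes were thus near that of all windows. Taken singly, CTTTGAT lay in 15.6% and CTTTGAA in 0% of the windows of higher genes, and no test was made. The 6 windows printed here were picked because their genes carry differences described in the text, 3 lower in LApcL (Prss56, Spock2, Wif1) and 3 higher (Reg3g, Mmp7, Sfrp5), with and without the letters. Each is written 5' to 3' along the gene, with motif letters in capitals.
Prss56: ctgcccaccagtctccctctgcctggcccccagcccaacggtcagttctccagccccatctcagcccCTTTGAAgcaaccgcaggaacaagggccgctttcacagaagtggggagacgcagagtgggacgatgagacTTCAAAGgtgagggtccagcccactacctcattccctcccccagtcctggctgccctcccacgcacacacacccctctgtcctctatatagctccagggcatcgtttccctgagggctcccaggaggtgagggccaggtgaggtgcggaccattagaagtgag
Spock2: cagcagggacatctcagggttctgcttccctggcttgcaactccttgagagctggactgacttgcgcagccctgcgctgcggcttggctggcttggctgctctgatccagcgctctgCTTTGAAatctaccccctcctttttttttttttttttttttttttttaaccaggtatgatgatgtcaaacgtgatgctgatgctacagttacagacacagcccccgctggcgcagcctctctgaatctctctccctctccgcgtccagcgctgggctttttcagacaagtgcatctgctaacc
Wif1: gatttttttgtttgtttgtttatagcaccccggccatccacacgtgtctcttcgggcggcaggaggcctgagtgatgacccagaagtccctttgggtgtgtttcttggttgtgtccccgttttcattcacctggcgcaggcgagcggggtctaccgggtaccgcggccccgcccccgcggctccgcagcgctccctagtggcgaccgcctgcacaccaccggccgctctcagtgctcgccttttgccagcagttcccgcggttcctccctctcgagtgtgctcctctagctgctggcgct
Reg3g: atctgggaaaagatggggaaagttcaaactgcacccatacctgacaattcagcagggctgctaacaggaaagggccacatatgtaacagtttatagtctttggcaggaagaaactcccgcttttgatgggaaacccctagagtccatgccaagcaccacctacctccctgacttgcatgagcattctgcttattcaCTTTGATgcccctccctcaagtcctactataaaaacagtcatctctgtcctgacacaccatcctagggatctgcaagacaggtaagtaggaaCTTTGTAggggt
Mmp7: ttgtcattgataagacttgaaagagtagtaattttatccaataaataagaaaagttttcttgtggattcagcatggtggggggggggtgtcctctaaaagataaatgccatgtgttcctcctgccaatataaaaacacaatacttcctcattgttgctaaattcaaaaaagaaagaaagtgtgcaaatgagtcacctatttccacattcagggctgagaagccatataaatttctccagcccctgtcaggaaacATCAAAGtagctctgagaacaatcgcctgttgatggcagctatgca
Sfrp5: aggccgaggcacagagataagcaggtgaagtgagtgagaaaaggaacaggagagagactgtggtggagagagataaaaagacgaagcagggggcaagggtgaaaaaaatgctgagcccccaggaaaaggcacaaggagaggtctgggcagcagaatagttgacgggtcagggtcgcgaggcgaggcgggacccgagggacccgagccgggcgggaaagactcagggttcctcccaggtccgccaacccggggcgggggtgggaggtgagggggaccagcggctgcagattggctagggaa
The Prss56 window (chr1:87183064-87183363, forward strand) held CTTTGAA on the forward strand 183 bases before the start and on the reverse strand 113 bases before it. The Spock2 window (chr10:60106007-60106306, forward strand) held CTTTGAA 133 bases before the start. The Reg3g window (chr6:78468825-78469124, reverse strand) held CTTTGAT 54 bases before the start and CTTTGTA 38 bases after it. The first of the Mmp7 windows (chr9:7691840-7692139, forward strand) held CTTTGAT on the reverse strand 4 bases after the start. The windows of Wif1 (chr10:121033754-121034053, forward strand) and Sfrp5 (chr19:42202203-42202502, reverse strand) held none of these letters. The motif letters were present in genes of both directions, and a match describes letters, not binding. Notum, Lgr5, Dkk3 and Ly6a had no entry among the windows.

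The targeted genes were still counted. Lef1 (chromosome 3, 131110471 to 131224356, forward strand, mm10) stood at 69.2 CPM (67.4 to 71.1) in LApc against 47.8 (46.3 to 49.3) in LApcL, with WT at 0.961, a log2 ratio of -0.53 (-0.58 to -0.47). Apc stood at 87.2 CPM in LApc against 95.4 in LApcL (WT 19.96). A transcript with a deleted exon can still be counted at its 3' end, so these counts do not measure the deletion. Lef1 UMIs were found in 44.5% of LApc cells (42.3 to 46.8) against 36% of LApcL cells (33.9 to 38.2), or 70.3% against 65.6% before thinning.

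Among secreted Wnt antagonists, Dkk3, Wif1 and Notum were lower in LApcL and Sfrp5 was higher. Dkk3 (Dickkopf family; chromosome 7, 112116017 to 112159057, reverse strand) stood at 63.3 CPM (61.6 to 65.1) in LApc against 2.91 (2.55 to 3.31) in LApcL, with WT at 0.0205. Its log2 ratio was -4.04 (-4.19 to -3.9). Wif1 binds Wnt proteins outside the cell (chromosome 10, 121033960 to 121100650, forward strand). It stood at 60.6 CPM in LApc against 7.45 in LApcL (WT 0.0205), a log2 ratio of -2.87 (-2.98 to -2.76). Notum removes the lipid that Wnt proteins need to act (chromosome 11, 120653788 to 120661175, reverse strand), and stood at 262 CPM (259 to 266) in LApc against 73.3 (71.4 to 75.2) in LApcL, with WT at 0.389, a log2 ratio of -1.82 (-1.87 to -1.78). For these 3 genes WT was near 0 and LApcL lay between WT and LApc. Dkk2, which binds the Wnt co-receptors, differed less, with 59 CPM in LApc against 42.7 in LApcL (WT 0.102). Sfrp5 (chromosome 19, 42197971 to 42202252, reverse strand), a secreted frizzled-related protein that binds Wnts, went the other way. It stood at 15.9 CPM (15 to 16.8) in LApc against 71.2 (69.4 to 73.1) in LApcL, with WT at 0.327, a log2 ratio of 2.1 (2.01 to 2.18). Sfrp2, of the same family, was the only other member past 2-fold upward, at a low level of 0.0381 CPM in LApc against 1.5 in LApcL (WT 0).

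Of 12 cell-bound regulators, 3 were at least 2-fold lower and none was at least 2-fold higher. Apcdd1, a membrane protein that binds Wnts, stood at 222 CPM in LApc against 34.9 in LApcL (WT 2.15), a log2 ratio of -2.64 (-2.69 to -2.58). Nkd1, which acts on Dishevelled inside the cell (chromosome 8, 88521354 to 88594884, forward strand), stood at 481 CPM (476 to 486) in LApc against 179 (176 to 182) in LApcL, with WT at 0.368, a log2 ratio of -1.42 (-1.45 to -1.4). Dact1, another Dishevelled partner, stood at 48.5 CPM in LApc against 17.6 in LApcL (WT 0.102). Others of the group kept closer levels. Axin2, the scaffold of the beta-catenin destruction complex, had a log2 ratio of -0.33 (-0.35 to -0.3) at 376 CPM in LApc against 299 in LApcL (WT 19.6). The ubiquitin ligases Rnf43 and Znrf3, which take Wnt receptors off the membrane, had log2 ratios of 0.19 (0.15 to 0.23) and -0.62 (-0.68 to -0.56). Of the 22 measured members of both lists together, 2 were at least 2-fold higher, 6 at least 2-fold lower, and the median was -0.36. Cells with 2 or more UMIs of Spock2, Mt3 and Prss56 together are described further on. Without them the median was -0.063 and Notum, Nkd1 and Wif1 were within 2-fold. Of all 16245 genes with 10 or more UMIs, 1.36% were that much higher, 3.1% that much lower, 8456 were above 0 and 7789 below, and the median was 0.011. These shares are the background for each gene list in the text. Several members were at very few UMIs. Among the 14 at 10 CPM or more in 1 of the 2 sums, 10 were below 0 and the median was -0.54. Dkk3 and Wif1 passed this limit only through LApc, where they were high, so this median is a description. With the 3 members at 0 UMIs set at 3 counts, the median of all 22 was -0.33.

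Other Wnt target genes did not move as 1 group. Prox1, a homeobox factor, stood at 413 CPM in LApc against 153 in LApcL (WT 2.5), a log2 ratio of -1.43 (-1.46 to -1.4). Bambi, a Bmp decoy receptor, stood at 34.7 CPM in LApc against 6.29 in LApcL (WT 2.78), Fgf20, a growth factor, at 6.77 CPM in LApc against 0.087 in LApcL (WT 0.0409), and Ephb3, a receptor for ephrins, at 28.6 CPM in LApc against 13.2 in LApcL (WT 3.52). Myc, Ccnd1, which encodes cyclin D1, and Cd44 had log2 ratios of 0.17, 0.11 and 0.39. Sox4 stood at 718 CPM in LApc against 965 in LApcL (WT 133) and the stem cell factor Ascl2 at 71 CPM in LApc against 98.8 in LApcL (WT 1.08). Of the 18 measured genes of this list 1 was at least 2-fold higher and 5 at least 2-fold lower, with a median of -0.08. Tcf7, the closest relative of Lef1 in the list of Tcf and Lef partners, stood at 36.5 CPM in LApc against 22.7 in LApcL (WT 3.6), and Tcf7l2 at 80.1 CPM in LApc against 94.7 in LApcL (WT 64.9). None of the 11 members of that list was past 2-fold, and their median was 0.14.

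**Figure D2:**
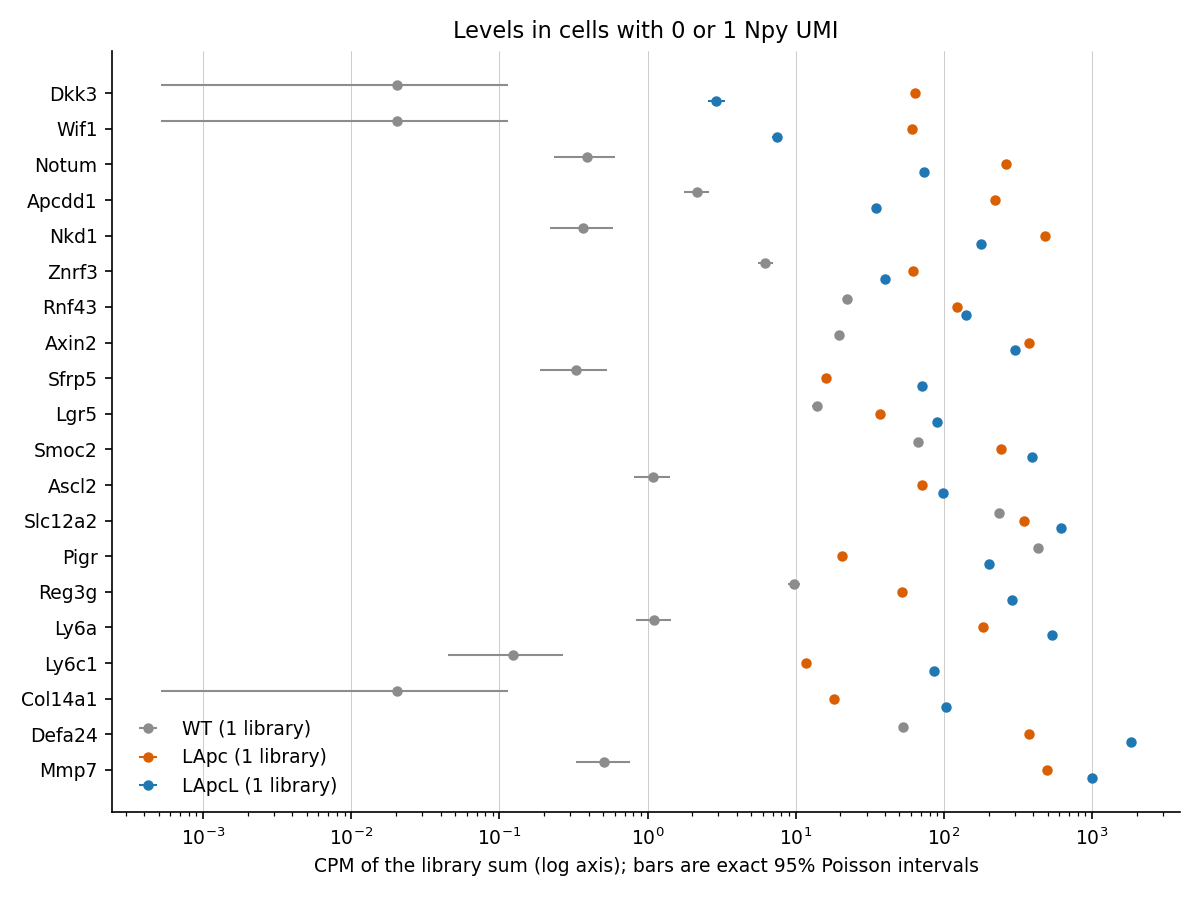
CPM of 20 genes in each library sum, on a log axis. Points are WT (grey), LApc (orange) and LApcL (blue), and bars are exact 95% Poisson intervals, often narrower than the point. Notum stood at 262 CPM in LApc and 73.3 in LApcL, while Lgr5 stood at 36.8 and 90.03.

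Apart from Xist, the 5 genes with the lowest log2 ratios were Ptn, Spock2, Mt3, Prss56 and Car1. Ptn, a heparin-binding growth factor (chromosome 6, 36714929 to 36810220, reverse strand), stood at 409 CPM (404 to 413) in LApc against 1.06 (0.844 to 1.31) in LApcL, with WT at 0 UMIs. Its log2 ratio was -7.64 (-7.8 to -7.47). Spock2, an extracellular proteoglycan, Mt3, a metallothionein, and Prss56, a serine protease, had log2 ratios of -6.99 (-7.14 to -6.82), -6.38 (-6.53 to -6.23) and -6.36 (-6.44 to -6.23). Mt3 belongs to a family of close paralogs, and Mt1 and Mt2 differed little, with log2 ratios of 0.23 and 0.19. Car1, a carbonic anhydrase, stood at 50.9 CPM in LApc against 0.211 in LApcL (WT 0). Pycr1, an enzyme of proline synthesis, stood at 126 CPM in LApc against 6.39 in LApcL (WT 3.23), and Tesc, a calcium-binding protein, at 90.5 CPM in LApc against 5.92 in LApcL (WT 0.348). Dkk3, described above, lay between Pycr1 and Tesc in the order of ratios. Peg3, Pla2g2f, Parm1 and Pcdh7 came after Tesc, with log2 ratios from -3.58 to -2.88. Among genes at 500 CPM or more, Pglyrp1, which binds bacterial peptidoglycan, stood at 1643 CPM in LApc against 310.05 in LApcL (WT 52.9). Vim, an intermediate filament gene, stood at 895 CPM in LApc against 289 in LApcL (WT 14.6), and Ifitm1, a membrane protein of the interferon-induced family, at 1374 CPM in LApc against 506 in LApcL (WT 0.0409). Fth1, the heavy chain of the iron store ferritin, stood at 3412 CPM in LApc against 1198 in LApcL (WT 7106), so that it was highest in WT. Aspscr1, Malat1, S100a6 and Atf3 followed with log2 ratios of -0.87, -0.81, -0.78 and -0.68.

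A few LApc cells held much of several of these transcripts. The top 5% of LApc cells held 98.1% of the Prss56 UMIs, 93.3% of Car1, 71.7% of Mt3 and 46.3% of Ptn. Notum was spread wider, with 35.5%, and Nkd1 widest of those named, with 16.3%. Ptn had a UMI in 38.8% of LApc cells (36.6 to 41) against 0.622% of LApcL cells (0.322 to 1.08), or 48.1% against 1.76% before thinning, and Spock2 in 33.2% and 0.829%. Notum had one in 63% and 48.8%, and before thinning the shares were 80.3% and 80%. Nkd1 had one in 74.2% and 71.3%. For Notum and Nkd1 most of the difference therefore lay in how many UMIs the cells held rather than in how many cells held any.

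Many LApc cells under the Npy limit held transcripts of Spock2, Mt3 and Prss56, named beside Npy in earlier results of these files and called companion genes here. Spock2 and Mt3 were higher in the Npy-positive LApc cells, with 433 and 843 CPM against 203 and 253 in the kept cells. Prss56 was not, with 64.6 against 90.1 CPM, so that the name does not hold for it across Npy levels. After thinning, 1144 LApc cells (60.1%) had 0 UMIs of these 3 genes, 163 had 1, 161 had 2 to 4 and 436 (22.9%) had 5 or more. In LApcL 1866 cells (96.7%) had 0, 61 had 1, 3 had 2 to 4 and none had 5 or more. The bins cut a range and define no cell types, and the 3 genes were taken from among the lowest in LApcL, so the bins describe LApc and are no test. In the bins every thinned cell counts the same, so that CPM differ somewhat from those of the sums. The share of cells with 1 Npy UMI was 17.7% in the LApc cells with 0 companion UMIs and 18.1% in those with 5 or more, so the single Npy UMIs did not mark these cells.

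Within LApc the lower Wnt genes went up with the companion genes. Across the bins of 0, 1, 2 to 4 and 5 or more companion UMIs, Notum stood at 117, 274, 520.5 and 839 CPM. In LApcL cells with 0 it stood at 83.6 CPM, so that LApcL lay near the LApc cells without companion UMIs. Nkd1 went from 322 to 1105 CPM between the lowest and highest bin, against 204 CPM in LApcL. Wif1 went from 12.4 to 222 CPM, against 8.95 in LApcL. Dkk3 still differed among cells with 0 companion UMIs, with 19.8 CPM in LApc and 5.09 in LApcL. Axin2 varied least of these, from 377 to 503 CPM in LApc, against 334 in LApcL. Lef1 itself stood at 58.8, 100, 118 and 111 CPM across the LApc bins and at 58.6 CPM in LApcL cells with 0, so that the targeted gene was counted alike in both genotypes outside the companion cells.

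**Figure D3:**
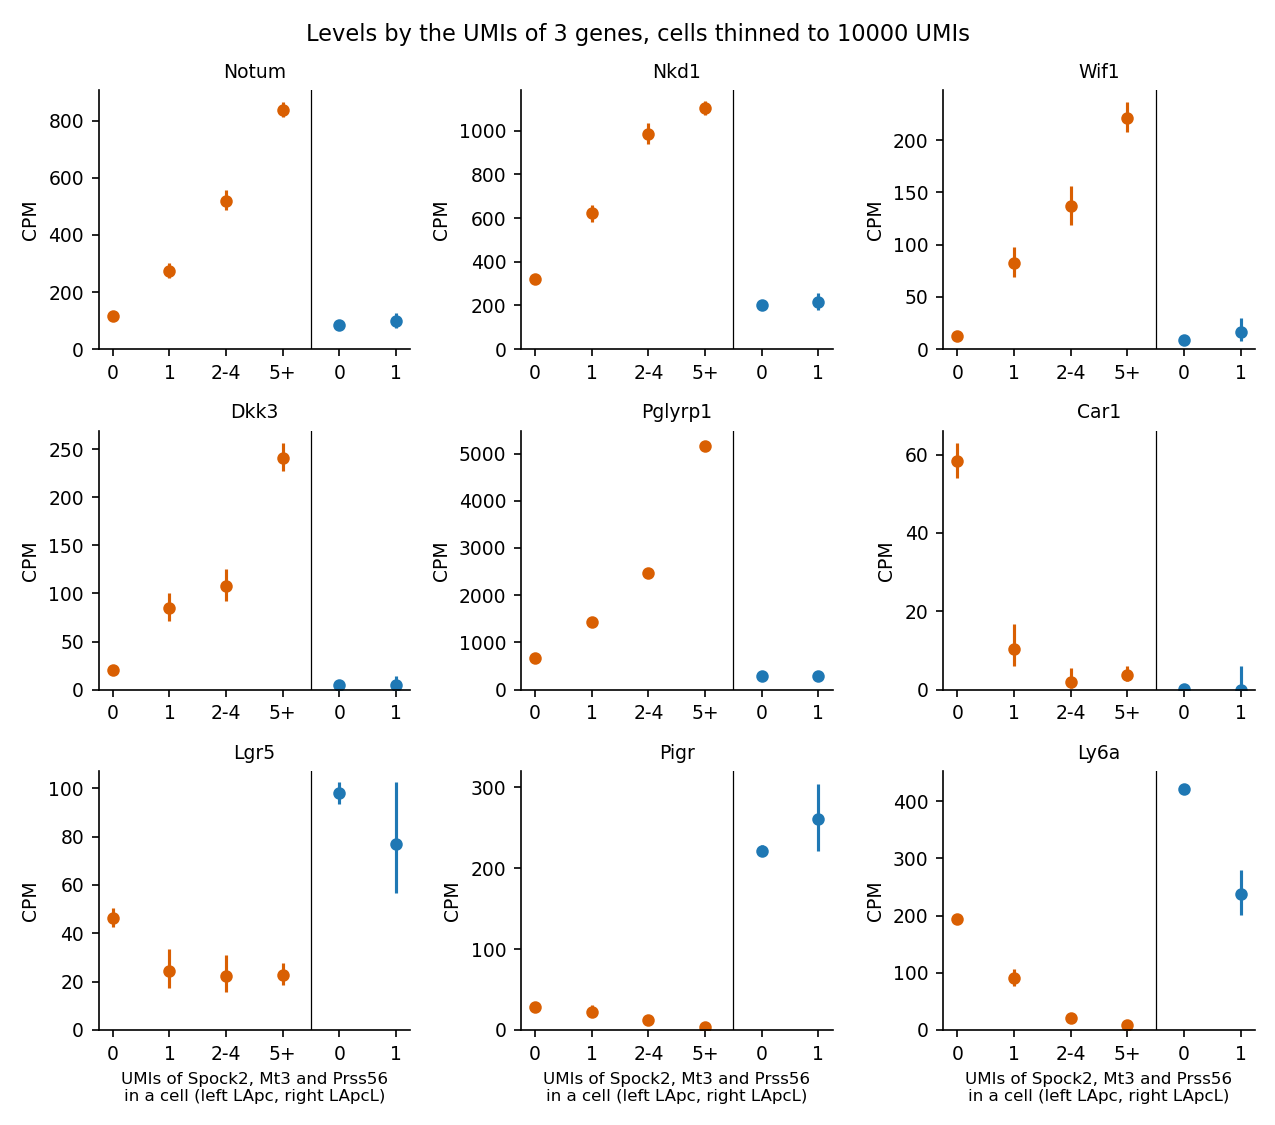
CPM of 9 genes in cells binned by their summed UMIs of Spock2, Mt3 and Prss56 after thinning to 10000 UMIs, with LApc (orange) left and LApcL (blue) right of the line, and exact 95% Poisson bars. Notum climbs from 117 to 839 CPM over the LApc bins and stands at 83.6 in LApcL, while Pigr stays below the LApcL level of 222 CPM in each LApc bin.

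Over the whole table, LApc cells with 5 or more companion UMIs had 175 genes at least 2-fold higher (5.29%) and 248 at least 2-fold lower (7.5%) than LApc cells with 0. Of the 63 genes lower in LApcL, 46 were among those higher in the companion cells and 6 among those lower. The 46 include the 3 genes that set the bins. Of the 32 genes higher in LApcL, 21 were at least 2-fold lower in the companion cells and 1 was higher. The median UMI count was 29542 in these cells and 37060 in those with 0. Compared among cells with 0 companion UMIs, 28 of the 63 lower genes and 24 of the 32 higher genes stayed past 2-fold, with the 3 companion genes at 0 by construction. In that comparison 30 genes were higher (0.907%) and 30 lower (0.907%). When cells with 2 or more companion UMIs before thinning were left out, which left 1125 LApc and 1901 LApcL cells, 22 genes were at least 2-fold lower (0.684%) and 29 at least 2-fold higher (0.901%). Of these, 13 of the lower and 22 of the higher ones were in the sets from all kept cells. The log2 ratios of Notum, Nkd1 and Wif1 were then -0.25, -0.37 and -0.063, and those of Ptn, Dkk3 and Car1 were at most -1.83. Ifitm1, Vim, Fth1, Pglyrp1 and Prox1 were also within 2-fold there, as was Clu among the higher genes at 0.9. Cdkn1c, which encodes the cell cycle inhibitor p57, changed sign in this setting. It stood at 128 CPM in LApc against 31.7 in LApcL (WT 13.5) in all kept cells, a log2 ratio of -1.98 (-2.04 to -1.92), and had a log2 ratio of 0.22 without the companion cells but -0.19 among cells with 0 companion UMIs. In the latter Upk3a, a uroplakin named after its values were seen, was the 1 lower gene above 0, at 0.14.

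Car1 ran against the companion genes. It stood at 58.3 CPM in LApc cells with 0 companion UMIs and at 3.67 CPM in those with 5 or more, and in LApcL cells with 0 at 0.161 CPM. The glutathione transferase Gsta3 and the carbonic anhydrase Car2 likewise stayed lower in LApcL among cells with 0 companion UMIs, with log2 ratios of -2.42 and -1.42. Car2, named after its values were seen, lies beside Car1 on chromosome 3 (14766216 to 14900770 for the pair) and stood at 192 CPM in LApc against 90.04 in LApcL (WT 1.39). Another group of neighbours was Mafg, Pycr1 and Notum on chromosome 11 (120625117 to 120661175), all lower in LApcL, where Mafg, a small Maf factor also named after its values were seen, had a log2 ratio of -1.17.

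Lgr5 led the stem cell genes that were higher in LApcL. Lgr5, a receptor that marks crypt base stem cells (chromosome 10, 115450311 to 115587780, reverse strand), stood at 36.8 CPM (35.5 to 38.1) in LApc against 90.03 (88 to 92.1) in LApcL, with WT at 13.9. Its log2 ratio was 1.27 (1.21 to 1.33), and it had a UMI in 23.8% of LApc cells (21.9 to 25.8) against 50.8% of LApcL cells (48.5 to 53), or 45.1% against 79.1% before thinning. Slc12a2, an ion cotransporter of stem cells, stood at 348 CPM in LApc against 612 in LApcL (WT 235), and Smoc2, a matrix protein, at 241 CPM in LApc against 390.1 in LApcL (WT 66.8). Cdk6, a cyclin-dependent kinase, stood at 202 CPM in LApc against 349 in LApcL (WT 50.1), and Prom1, a membrane glycoprotein, at 71 CPM in LApc against 122 in LApcL (WT 49.1). Sox9, Mex3a and Tnfrsf19 differed less, with log2 ratios of 0.23, 0.3 and -0.03. Olfm4, an abundant marker of normal stem cells, had a UMI in 0.158% of LApc and 0.0518% of LApcL cells, against 9.85% in WT. Of 15 measured stem cell markers, 11 were above 0, 1 was at least 2-fold higher, and the median was 0.69. Without the companion cells the median was 0.55. Lgr5 stayed at least 2-fold higher in the 15 alternatives tried, with log2 ratios of 1.02 to 1.77. Within LApcL, Mki67 had a UMI in 41.9% of cells with and 43.8% of cells without an Lgr5 UMI, so the shares were close.

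Pigr, the receptor that carries antibodies across the epithelium (chromosome 1, 130826684 to 130852249, forward strand), had the highest log2 ratio outside the sex-linked genes. It stood at 20.3 CPM (19.4 to 21.4) in LApc against 202 (199 to 206) in LApcL, with WT at 431, a log2 ratio of 3.25 (3.18 to 3.32). LApcL lay between LApc and WT for this gene, and Pigr had a UMI in 9.3% of LApc, 57.9% of LApcL and 86.7% of WT cells. Gm43305, a predicted gene, stood at 39.2 CPM in LApc against 321 in LApcL (WT 44.6), and had a UMI in 27.5% of LApc and 87.9% of LApcL cells. Reg3g and Reg3b, secreted lectins that kill bacteria, stood at 52.3 CPM in LApc against 287 in LApcL (WT 9.71) and at 847 CPM in LApc against 1598 in LApcL (WT 18.7). They are close paralogs, and reads may have been divided wrongly between them. Reg3b was found in 79.9% of LApcL cells with a Reg3g UMI and 39.0% of those without. Clca3b, named after its values were seen, and 2210407C18Rik had log2 ratios of 1.93 and 2.11, and Lgals2, a galectin, had 0.82. Of 21 measured epithelial defence genes, 3 were at least 2-fold higher (Pigr, Reg3g and Tff2, a trefoil peptide at 1.01), none was at least 2-fold lower, and the median was -0.08, with 13 of the 21 below 0.

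Genes of fetal-like intestinal epithelium were split as well. Ly6a, also known as Sca-1 (chromosome 15, 74994877 to 74998031, reverse strand), stood at 184 CPM (181 to 187) in LApc against 537 (532 to 542) in LApcL, with WT at 1.1, a log2 ratio of 1.54 (1.51 to 1.57). Its neighbours Ly6c1 and Ly6g stood at 11.8 CPM in LApc against 85.4 in LApcL (WT 0.123), and at 14 CPM in LApc against 64.3 in LApcL (WT 0). The 3 genes lie within 74994877 to 75159126 of chromosome 15 and encode close surface proteins, so reads may be split among them. Ly6c1 had a UMI in 35.2% of LApcL cells with a Ly6a UMI and in 5.73% of those without. Clu, a secreted chaperone, stood at 103 CPM in LApc against 239 in LApcL (WT 2.37). The remaining members ranged widely. Spp1, which encodes osteopontin, Anxa1 and Krt7 had log2 ratios of 1.46, -0.1 and 0.31, and the median of the 16 was 0.12. Ly6a, Ly6c1 and Clu were also abundant in the barcodes shared by several libraries, which express endothelial genes. There Ly6a stood at 732 CPM in LApc and 731 in LApcL, and Ly6c1 at 827 and 845. In the kept WT cells Ly6a and Ly6c1 stood at 1.1 and 0.123 CPM. At 1000 UMIs Pecam1, which marks endothelium, was found in 0.105% of kept LApc and 0.104% of kept LApcL cells. Of the shared barcodes 58.6% and 57.9% had it. How much RNA of such cells the kept cells held was not tested. Col14a1, a collagen, stood at 18.1 CPM in LApc against 104 in LApcL (WT 0.0205), with UMIs in 12.4% of LApc and 50.7% of LApcL cells.

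The defensin UMIs lay mostly in few cells, while Mmp7 was higher across cells. The median over cells of the whole list was 3 UMIs in LApc and 7 in LApcL. Mmp7 alone had medians of 2 and 5, and Defa24, Defa22, Defa30 and Lyz1 had medians of 0 in both. Paneth cells sit at the crypt base and secrete antimicrobial defensins. Defa24 (chromosome 8, 21734494 to 21735471, forward strand) stood at 375 CPM (371 to 379.6) in LApc against 1826 (1817 to 1836) in LApcL, with WT at 53.2, a log2 ratio of 2.28 (2.26 to 2.3). Defa36, Defa30, Defa17 and Defa22 had log2 ratios of 2.33, 2.08, 1.61 and 0.9. These genes are near-identical copies on chromosome 8, and how reads were split among them is uncertain. The top 5% of LApcL cells held 99.4% of the Defa24 UMIs, and Defa24 had a UMI in 7.41% of LApc cells (6.27 to 8.67) against 20.8% of LApcL cells (19 to 22.7), or 19.5% against 48.8% before thinning. Defensin counts outside the kept cells differed between the libraries too. In the shared barcodes Defa24 stood at 3.3 CPM in LApc and 493 in LApcL, and Defa30 at 0.495 and 231. At 1000 UMIs, Defa24 had a UMI in 1.89% of kept and 0.175% of shared LApc barcodes, and in 6.27% and 0.707% in LApcL, and the part of free RNA in these shares was not tested. Cells with over 100 of 10000 UMIs from the Paneth list numbered 49 in LApc (2.57%) and 83 in LApcL (4.30%). Lyz1, the lysozyme of the same cells, went the other way, with 364 CPM in LApc against 218 in LApcL (WT 30.2). Mmp7, the protease that activates defensins, stood at 495 CPM in LApc against 1003 in LApcL (WT 0.511). It lay just past 2-fold with a log2 ratio of 1.02 (1 to 1.04), and was under 2-fold in 6 of 15 alternatives. The top 5% of LApcL cells held 43.2% of its UMIs, and 93% of LApcL cells had one. Of 13 measured Paneth genes, 6 were at least 2-fold higher, none at least 2-fold lower, and the median was 0.91, beside 1.36% higher and 3.1% lower of all genes with 10 or more UMIs. Without cells over 1% Paneth UMIs, Defa36 had a log2 ratio of 0.75 and Defa24 had 1.46. Goblet cells secrete mucus. Of their genes Spink4 stood at 104 CPM in LApc against 227 in LApcL (WT 407), Agr2, which helps fold mucins, at 14.7 CPM in LApc against 44.6 in LApcL (WT 144), and Tff3 at 195 CPM in LApc against 358 in LApcL (WT 548), so that WT lay above both for these 3 and below both for Defa24. Their 12 measured genes had a median of 0.55, with 2 at least 2-fold higher, and cells with over 100 UMIs of the list numbered 24 in LApc and 60 in LApcL. Clps, which encodes colipase, stood at 19.1 CPM in LApc against 84.5 in LApcL (WT 5.62), and the top 5% of LApcL cells held 99.7% of its UMIs.

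Other mature cell types were not higher as groups. Of 10 measured enteroendocrine genes, none was at least 2-fold higher (1.36% of all genes with 10 or more UMIs) and 2 were at least 2-fold lower (3.1%), among them Chgb, a granin, with 12.9 CPM in LApc against 1.73 in LApcL (WT 409). Of 7 measured tuft cell genes 4 were above 0 with a median of 0.19, and 1 was at least 2-fold lower, Avil, an actin-binding protein, with 13.2 CPM in LApc against 0.883 in LApcL (WT 0.634). The 16 measured enterocyte genes had a median of -0.04, and Slc5a1, a glucose transporter, stood at 27 CPM in LApc against 35.8 in LApcL (WT 529). Cdx2, which sets intestinal identity, stood at 80.7 CPM in LApc against 162 in LApcL (WT 96.3), at the edge of 2-fold with a log2 ratio of 0.997. Its partner Cdx1 had a log2 ratio of -0.12, Isx, an intestinal homeobox factor, 0.8, and Sox17, an endoderm factor, -1.77. The 20 measured identity factors had a median of 0.18.

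Genes of cell division were higher as a group but by less than 2-fold. All 22 mitosis genes were above 0, with log2 ratios of 0.13 to 0.81 and a median of 0.6. Of 22 S phase genes 21 were above 0, with a median of 0.44. Mki67, a proliferation marker, had a UMI in 27.8% of LApc cells (25.8 to 29.9) against 42.8% of LApcL cells (40.6 to 45.1), or 40.1% against 57.8% before thinning, and Top2a, a topoisomerase, in 29.5% and 42%. Within LApc, Mki67 stood at 135 CPM in cells with 0 companion UMIs and 18.6 CPM in those with 5 or more, and in LApcL cells with 0 at 177 CPM. Mki67 thus varied along the companion range within LApc. Whether this range accounts for part of the difference between the libraries was not tested. Cell cycle inhibitors and p53 targets ran the other way. Of 17 measured genes 15 were below 0 and the median was -0.38, with Cdkn1a (p21) at 444 CPM in LApc against 317 in LApcL (WT 238) and Btg2 at 368 CPM in LApc against 216 in LApcL (WT 334). Of 19 genes of Myc and ribosome biogenesis 17 were above 0, with a median of 0.19, and the 80 cytosolic ribosomal protein genes had a median of -0.07.

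**Figure D4:**
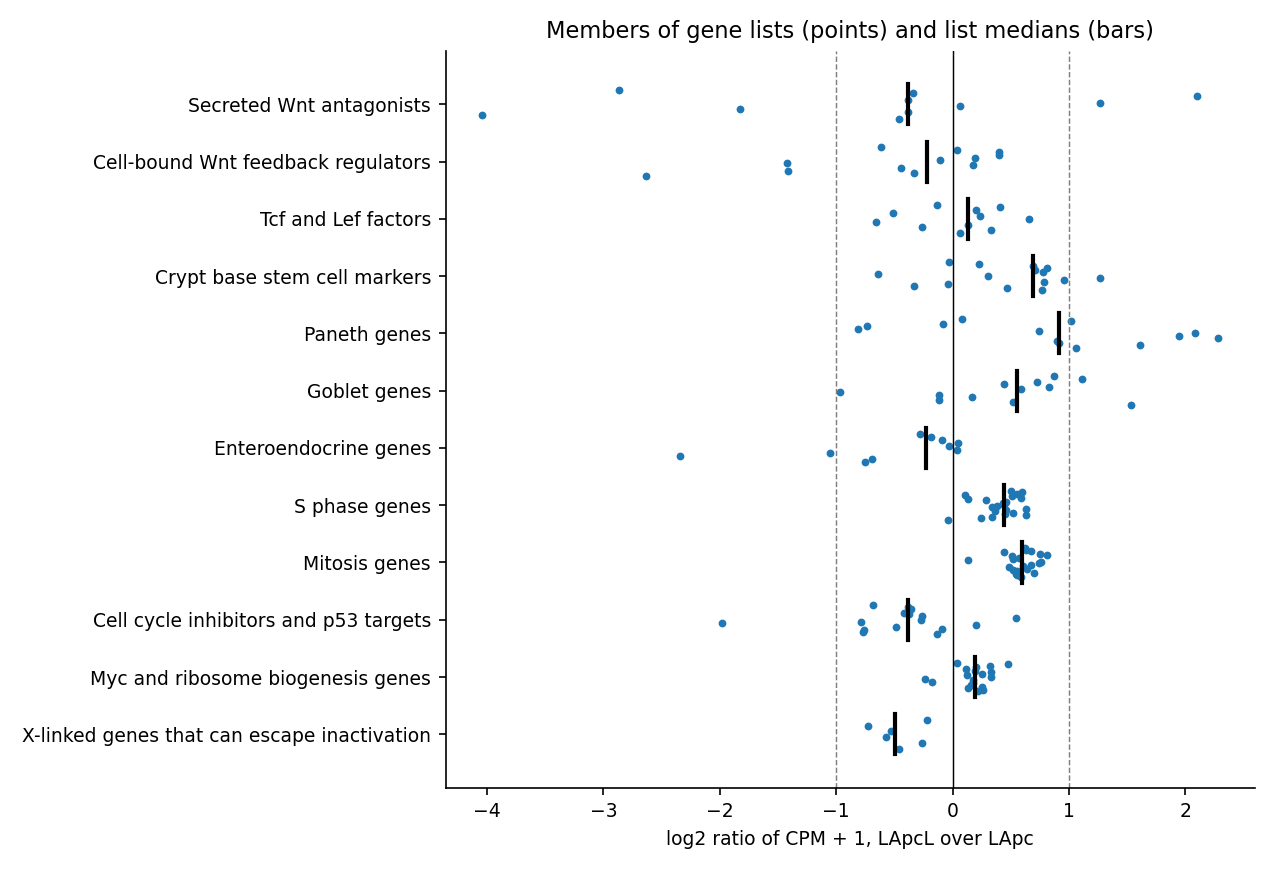
Log2 ratios of the measured members (points) of 12 gene lists and each list's median (black bar), with dashed lines at 2-fold. Mitosis genes lie above 0 throughout with a median of 0.6, whereas secreted Wnt antagonists spread from -4.04 to 2.1.

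Bmp4, a secreted growth factor, was the extreme of the Bmp and Tgfb list, with 24.9 CPM in LApc against 0.982 in LApcL (WT 2.07), a log2 ratio of -3.71 (-3.87 to -3.53). Id1 and Id3, targets of Bmp signalling, had log2 ratios of -0.37 and -0.65. Of 16 measured genes of this list 12 were below 0, 3 were at least 2-fold lower (3.1% of all genes with 10 or more UMIs), none was at least 2-fold higher (1.36%), and the median was -0.27. In the Notch list, Hes6, a factor of the Hes family, stood at 472 CPM in LApc against 235 in LApcL (WT 65.7), at the edge of 2-fold, and Hes1, a direct Notch target, at 753 CPM in LApc against 503 in LApcL (WT 308). The median of its 16 measured genes was 0.19. The 6 X-linked genes that can escape inactivation were all below 0 with a median of -0.49, the direction in which Xist differed, and none was past 2-fold. Of 92 genes on the X chromosome at 50 CPM or more, 2 were at least 2-fold lower, Xist and Cited1, and their median was -0.011. Cited1, a transcription cofactor named after its values were seen, stood at 61.2 CPM in LApc against 13 in LApcL (WT 0.123). Of the 30 genes within 10 Mb of Lef1, 1 was past 2-fold, against 32 higher and 63 lower among all 3308 genes, a share near the background.

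Matrix and barrier genes held both directions. Of 24 measured matrix and adhesion genes, 3 were at least 2-fold higher, (Col14a1, Mmp7 and Timp1), 3 were at least 2-fold lower (Timp3, Lama3 and Sparc), and the median was 0.26. Of 14 measured claudins and keratins, Cldn15, a claudin that forms sodium channels between cells, was higher with 57.7 CPM in LApc against 134 in LApcL (WT 197), and Krt23, a keratin, was lower with 169.6 CPM in LApc against 83.9 in LApcL (WT 51.7). Their median was 0.01. The 15 Eph receptors and ephrins, which place cells along the crypt, had a median of 0.17, and the 12 Erbb ligands and receptors one of -0.17 with none past 2-fold. Ereg, an Erbb ligand, stood at 7.39 CPM in LApc against 3.72 in LApcL (WT 44.4).

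Stress and metabolic genes were mostly within 2-fold. The 17 immediate early and heat shock genes had a median of -0.17, with 14 below 0 and none past 2-fold. Of 14 genes of the unfolded protein and amino acid responses 10 were below 0, and the median was -0.34. Asns, which makes asparagine, stood at 40.7 CPM in LApc against 32 in LApcL (WT 86.5). The 20 metallothionein and detoxification genes had a median of -0.05, with Gsta2 above 2-fold, Mt3 and Nqo1 below it, and Gsta3 at 81.9 CPM in LApc against 16.2 in LApcL (WT 36.1). Of 21 measured interferon and antigen presentation genes, 1 was at least 2-fold higher (H2-Ab1) and 2 at least 2-fold lower (Ifitm1 and Cd74), and the median was -0.11. The 16 glycolysis genes had a median of -0.03, the 85 measured nuclear respiratory chain genes -0.04 and the 13 mitochondrial genes 0.1. Among 8 reserve stem cell genes Clu alone was past 2-fold, and their median was 0.1.

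Putting the 257 Npy-positive LApc cells (11.9% of cells that met the other limits) back kept most genes in their sets and added others. The limit of 50 CPM was applied anew to these sums, so the number of genes tested can differ from that of the main sets. The higher genes then numbered 38, with all 32 of the first set among them, and the lower genes 90, with 60 of the 63. No gene crossed the 2-fold line by a move of over 1 log2 unit. The share of all genes past 2-fold between the Npy-positive and the kept LApc cells was not counted, so only single genes are given. Wif1 stood at 539.8 CPM in the Npy-positive cells, Ptn at 2330.2 and Dkk3 at 201, against 60.6, 409 and 63.3 in the kept cells. Vim and Prss56 did not follow, with 873 and 64.6 CPM in Npy-positive cells against 895 and 90.1. In LApcL 1 cell was left out, with 2 Npy UMIs. Near the limit, 50 LApc cells had 2 Npy UMIs, just outside it, and 326 had 1, just inside it.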

How the data were processed

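Small intestinal organoids of 3 genotypes were profiled by droplet single-cell RNA sequencing. The authors aligned reads to mm10 with Cell Ranger and deposited 1 matrix of UMI counts per library, with 32285 genes and raw, unnormalized counts. The labels name Cell Ranger 2.1.1 and the file headers 6.0.1, so the version is uncertain. No column of another sample was present. Members and gene lists were chosen with earlier results of these data known.

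Cells were kept by the limits given above, and their counts were summed per library and scaled to CPM. Depth per sum was 48895147 (WT), 78731286 (LApc) and 80442140 UMIs (LApcL). Intervals were exact (Poisson for a sum, conditional binomial for a ratio, Clopper-Pearson for a share) and cover counting error only. Genes were named where they were among the 12 highest or lowest log2 ratios at 50 CPM or more, among the 8 highest or lowest at 500 CPM or more, or members of 37 lists. Sex-linked genes and the 13 mitochondrial genes were set apart. No p-value was computed. Doublets were not removed, since Scrublet (scanpy 1.11.5) marked 2 barcodes in each of LApc and LApcL by its automatic limit, which is too few to have worked. Leaving out the highest scores was an alternative. Bins by companion UMIs were added after the data were seen. Calculations were checked on simulated counts, with numpy 2.4.6, scipy 1.17.1 and pandas 2.3.3.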

Additional observations from a re-analysis of the deposited data

How the results depend on the processing

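No paired analysis was possible because each genotype had 1 library. For the same reason no result has a check against the spread between animals or cultures, and genotype, days after tamoxifen and sex-linked genes cannot be told apart. Of 40 named genes past 2-fold, 26 stayed past it in all 15 alternatives tried on single genes, and 581 of the 600 values did. The number of genes at least 2-fold higher in LApcL was 77 at a minimum of 20 CPM, 10 at 200 CPM, 221 with no such filter and 87 in cells up to the median of S phase and mitosis UMIs. The number of genes at least 2-fold lower in LApcL was 140, 18, 503 and 138 under these settings, 22 without the cells that held 2 or more companion UMIs and 30 among cells with 0 after thinning, a setting chosen after the data were seen. Counts at other CPM limits rest on different numbers of genes tested, and the cause of the other moves was not tested.

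The median log2 ratio of Wnt antagonists and feedback regulators kept its sign in every alternative tried. It was -0.063 without the companion cells and -0.043 with a pseudocount of 10 CPM. It was -0.38 with Npy at 0 UMIs only, with Npy-positive cells kept and on a median-of-ratios scale, -0.39 without the highest Scrublet scores and without Paneth cells, and -0.40 at 20000 UMIs or more. It was -0.44 at a mitochondrial limit of 10%, -0.42 in thinned cells, -0.46 without the 50 most abundant genes in the total and -0.46 in cells up to the median of cycle UMIs. The median log2 ratio of crypt base stem cell markers was 0.55 without the companion cells, 0.66 at 20000 UMIs or more and in thinned cells, 0.25 with a pseudocount of 10 CPM, 0.65 on the median-of-ratios scale and 0.84 in cells up to the median of cycle UMIs. The log2 ratio of Cdkn1c was 0.22 without the companion cells, a reversal not seen among cells with 0 companion UMIs after thinning (-0.19), and its cause was not tested. Genes under about 20 CPM have few UMIs per cell at this depth, and their shares of cells are limited by counting.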
